A study of Mus musculus with 19 samples.

Results

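Although the tumour suspensions were sorted for live CD45-positive cells, 178 of the 16600 cells that passed the quality filters carried the RNA of melanoma cells. A cell passed with at least 500 UMIs (unique molecular identifiers, each standing for 1 captured RNA molecule), at least 300 genes and under 10% mitochondrial UMIs. Melanoma cells were then chosen by their pigment genes: Pmel, Dct, Mlana and Tyrp1 together made up at least 1% of a cell's UMIs, and Lyz2, an abundant lysozyme of macrophages, under 0.1%. The rule selected 81 of 8239 passing cells in control tumours and 97 of 8361 in knockout tumours.

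The tumours grew from B16-F10, a pigmented melanoma line of C57BL/6 mice. The cells carried either a scrambled control (SCR) or a knockout of Mettl5 (KO), the methyltransferase that places N6-methyladenosine on the RNA of the small ribosomal subunit together with its partner TRMT112. Each genotype gave 1 single-cell library (10x Genomics 5′ chemistry). The SCR library is named WT in its description. The same genotypes were also profiled in culture, in medium with fetal bovine serum, as input RNA and as ribosome footprints, the stretches of mRNA that translating ribosomes protect, with 2 libraries per genotype and assay. No drug treatment separates the groups. The labels do not say whether the KO line is 1 clone, how many tumours entered each single-cell library, or whether replicate cultures were separate, so p-values for culture measure the spread between these libraries. The interest of the class is that it shows what the tumour cells themselves express in the animal, beside the same genotypes in a dish.

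Melanoma cells make melanin in melanosomes, under the transcription factor MITF, which binds E-box sequences in promoters of pigment genes together with SOX10. Inside a tumour, cells far from blood vessels face low oxygen, where hypoxia-inducible factors bind a short core sequence and raise genes for glycolysis, pH control, vessel growth and mitophagy. Dividing cells pass through S phase, when DNA is copied and histones are made, and then through mitosis, each with its own set of transcripts.

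Promoter sequences of 5 genes are shown: 2 genes that choose the class and 3 hypoxia genes that were lower in KO melanoma cells. Each run is from RefSeq (GRCm38.p6), from 250 bases before to 50 bases after the start of the gene, 5′ to 3′ on the gene's strand. In Tyrp1 (chr4:80833963-80834262, plus strand) and Dct (chr14:118052197-118052496, minus strand), enzymes of melanin synthesis, the capitals mark the MITF E-box CATGTG or its reverse complement. In Car9 (chr4:43506776-43507075, plus strand), Ero1a (chr14:45318523-45318822, minus strand) and Hk2 (chr6:82774405-82774704, minus strand), they mark ACGTG, the core of the hypoxia response element, or its reverse complement.
Tyrp1: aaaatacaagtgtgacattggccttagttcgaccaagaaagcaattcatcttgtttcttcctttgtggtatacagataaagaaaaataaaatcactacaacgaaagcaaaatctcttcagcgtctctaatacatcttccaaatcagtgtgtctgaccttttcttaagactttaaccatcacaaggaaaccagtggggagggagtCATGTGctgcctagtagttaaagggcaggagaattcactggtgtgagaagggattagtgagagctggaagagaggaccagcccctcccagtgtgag
Dct: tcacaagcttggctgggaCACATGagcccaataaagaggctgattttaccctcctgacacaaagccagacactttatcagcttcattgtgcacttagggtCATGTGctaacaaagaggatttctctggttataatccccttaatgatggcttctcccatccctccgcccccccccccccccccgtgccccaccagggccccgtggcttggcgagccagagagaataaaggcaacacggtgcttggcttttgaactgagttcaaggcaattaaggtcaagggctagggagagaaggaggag
Car9: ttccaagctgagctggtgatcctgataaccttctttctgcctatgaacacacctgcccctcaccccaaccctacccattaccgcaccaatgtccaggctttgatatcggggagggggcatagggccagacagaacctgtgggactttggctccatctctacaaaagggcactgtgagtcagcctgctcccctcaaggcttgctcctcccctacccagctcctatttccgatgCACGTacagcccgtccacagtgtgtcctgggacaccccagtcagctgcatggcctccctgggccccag
Ero1a: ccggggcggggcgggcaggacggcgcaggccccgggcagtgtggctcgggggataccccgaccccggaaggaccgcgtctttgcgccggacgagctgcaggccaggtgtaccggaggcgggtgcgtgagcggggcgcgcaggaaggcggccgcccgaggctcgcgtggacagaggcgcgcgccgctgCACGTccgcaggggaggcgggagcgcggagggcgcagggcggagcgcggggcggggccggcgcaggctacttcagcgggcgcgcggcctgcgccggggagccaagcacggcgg
Hk2: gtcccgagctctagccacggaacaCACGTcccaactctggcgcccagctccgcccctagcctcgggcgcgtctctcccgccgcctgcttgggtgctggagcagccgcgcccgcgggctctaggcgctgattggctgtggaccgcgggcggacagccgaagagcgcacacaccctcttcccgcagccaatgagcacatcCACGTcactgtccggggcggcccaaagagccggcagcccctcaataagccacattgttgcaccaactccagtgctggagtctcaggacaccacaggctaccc
Tyrp1 held CATGTG 46 bases upstream of its start, and Dct held it 232 and 150 bases upstream. Car9 held ACGTG 18 bases upstream, Ero1a 63 bases upstream and Hk2 226 and 52 bases upstream. Of the 27025 genes with a promoter in the table, 15.9% held CATGTG and 21.8% held ACGTG on either strand. ACGTG lies within the E-box CACGTG, so a match can be either. Pmel and Mlana had no entry. Of 15 hypoxia and glycolysis genes that were at least 1.5-fold lower in KO melanoma cells (below), 13 had a promoter entry and 10 of these held ACGTG. Of the genes of that list that were less than 1.5-fold lower, 11 had an entry and 7 held it. A match describes these letters and does not show a bound site.

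The values that chose the cells were close in both libraries. The pigment genes of the rule had a median share of 1.27% of UMIs per cell in both libraries, with a highest share of 4.80% in SCR and 3.26% in KO. The 3 cells just inside the limit had 1.0001, 1.0027 and 1.0074% in SCR and 1.0142, 1.0152 and 1.0168% in KO. The 3 just outside had 0.990, 0.986 and 0.978% in SCR and 0.992, 0.991 and 0.984% in KO. A further 55 SCR and 81 KO cells lay between 0.5 and 1%, so the limit cuts through a continuous cloud of cells rich in RNA. The limit for Lyz2 left out 1 SCR and 2 KO cells, and Lyz2 was at 0 in 69 of the 81 SCR and 80 of the 97 KO members. The exact 95% binomial interval of the class's share was 0.781 to 1.22% in SCR and 0.942 to 1.41% in KO, covering counting error only. Since the sort for CD45 sets this share, no difference between genotypes is drawn from it.

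**Figure D1:**
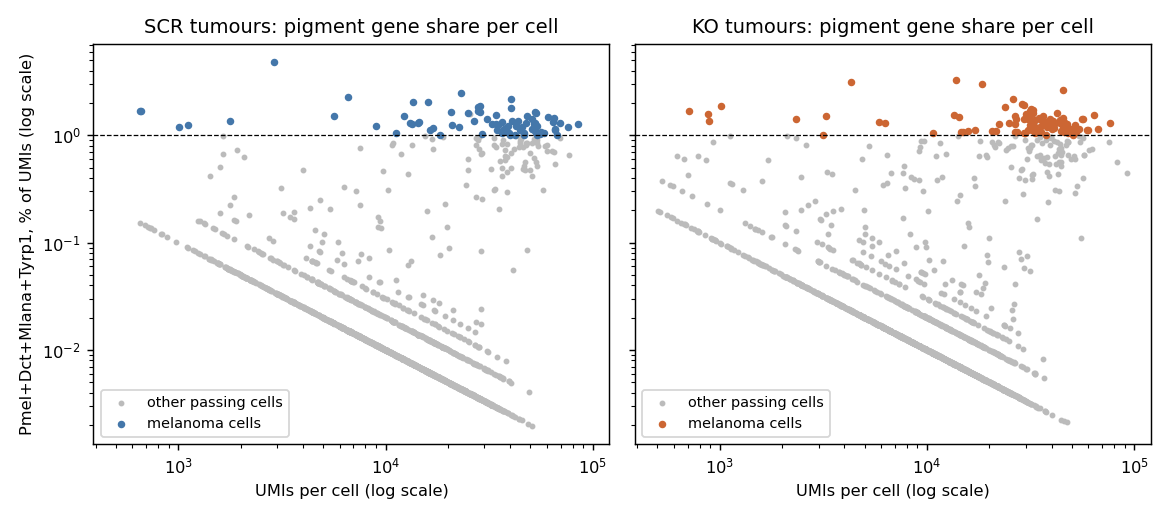
Share of the 4 pigment genes of the rule among a cell's UMIs (vertical axis, percent, log scale) against UMIs per cell (horizontal axis, log scale) for each library; coloured points are melanoma cells, grey points other passing cells with at least 1 such UMI, and the dashed line is the 1% limit. The 81 SCR and 97 KO cells have medians of 38088 and 33094 UMIs, and grey cells continue the same cloud down to about 0.5%.

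Melanoma cells held several times the RNA of the sorted immune cells. Their median was 38088 UMIs in SCR and 33094 in KO, against 8806 and 7938.5 in the other passing cells, and they had a median of 6264 and 6103 detected genes. Together the members gave 2937034 UMIs in SCR and 3222250 in KO. Mitochondrial UMIs had a median of 1.04 and 1.13%. Only 5 SCR and 4 KO members had under 2000 UMIs. A doublet caller, Scrublet, marked 0 SCR cells and 1 KO cell among all passing cells and so did not work here. Doublets therefore rest on the markers. Ptprc, which encodes CD45 itself, had a UMI in 2 SCR and 4 KO members (2.47 and 4.12%), against 77.4 and 76.8% of the other passing cells. The 2 libraries shared 116 cell barcodes, of which none was a melanoma cell in both.

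Markers outside the rule were those of melanocytes too. All 16 further melanoma markers were detected. They had a median of 0.918% of UMIs per SCR member and 0.706% per KO member, against 0.021 and 0.016% in the other cells. Levels are given as CPM, UMIs per 1000000 UMIs of the summed class. Tyr, the first enzyme of melanin synthesis, stood at 597 CPM in SCR and 553 in KO, against 15.3 and 19.0 in the other cells. Slc45a2, a melanosome transporter, stood at 575 and 592 CPM. Sox10, a master regulator of neural crest and melanocyte identity, stood at 274 and 236 CPM against 7.93 and 13.95. Mitf stood at 586 and 491 CPM against 105 and 91.5. Apod had 1 and 2 UMIs in all.

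Most markers of other cell types were at or near 0. The 10 pan-immune genes had a median share of 0.025% of a member's UMIs in SCR and 0.029% in KO, with a highest cell at 0.153 and 0.227%, against medians of 0.497 and 0.524% in the other cells. Most of it was Arhgdib, at 277 and 287 CPM. The 15 macrophage genes had medians of 0.066 and 0.063%, with a highest cell at 0.245 and 0.722%, and most of this was Apoe, at 574 and 611 CPM. T cell, NK cell, B cell, neutrophil, fibroblast, erythroid and keratinocyte lists had a median of 0 in both libraries, and the dendritic and endothelial lists medians of at most 0.0023 and 0.0093%. The highest cell of the dendritic list was at 0.418% in SCR and 1.13% in KO, and its Cd74 stood at 141 and 151 CPM, against 5413 and 5267 CPM in the other cells. The endothelial list was mostly Eng, at 85.5 and 101 CPM, with Cdh5, Kdr, Cldn5 and Emcn at 0. KO members carried somewhat more macrophage RNA in a few cells. C1qb, a complement subunit of macrophages, had 24 UMIs in SCR and 64 in KO, and Tyrobp, a myeloid adaptor, had 9 and 60. The part of members with immune RNA in the comparisons below was measured by leaving out members with a Ptprc UMI or any Lyz2 UMI.

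Between genotypes, most genes stayed close in level, and a small share differed by 1.5-fold or more. Summed over the class, 7118 genes had at least 100 UMIs over both libraries. Of these, 287 (4.03%) were at least 1.5-fold higher in KO and 270 (3.79%) at least 1.5-fold lower. At 2-fold, 46 were higher and 36 lower. The median log2 ratio over all genes tested was 0.03. With 1 library per genotype there is no replicate check and no test, and intervals beside ratios are exact 95% intervals for counting error only. The tumours behind a library and its handling cannot be told apart from the genotype.

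Mettl5 RNA was not lost from KO melanoma cells. It had 104 UMIs in SCR and 88 in KO (35.4 and 27.3 CPM), a log2 ratio of -0.37 with an interval of -0.80 to 0.05. In cultured input RNA it was at 9.47 and 9.61 CPM in the SCR libraries and 6.22 and 6.15 CPM in the KO libraries, a log2 difference of -0.56 (SE 0.13, edgeR adjusted p = 0.0284). Both KO cultures lay below both SCR cultures. A knockout by a small deletion or insertion can leave RNA in place, and the labels do not give the edited site. Trmt112 had a log2 ratio of 0.15 (-0.03 to 0.32) in tumour cells. In cultured input RNA it rose by 0.80 (SE 0.10, edgeR adjusted p = 0.00527).

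Hypoxia and glycolysis genes were lower in KO melanoma cells. Of 26 tested members of the list, 15 were at least 1.5-fold lower, none was higher, and all 26 had a log2 ratio below 0, with a median of -0.63. Among all genes 3.79% were this much lower, and 3258 of 7118 had a ratio below 0. The list's summed level went from 33969 CPM in SCR to 25789 in KO. In the other cells of the same tumours, mostly immune cells, the members' median was -0.17, in the same direction.

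Genes that signal to vessels showed the largest differences of the list. Adm, which encodes the vasodilator adrenomedullin, had 164 UMIs in SCR and 19 in KO (55.8 and 5.90 CPM), a 9.47-fold lower level (5.87 to 16.1). It was seen in 45.7% of SCR and 7.22% of KO members. Vegfa, the main growth factor of blood vessels, had 615 and 187 UMIs (209 and 58.0 CPM), 3.61-fold lower (3.06 to 4.27). In the other cells Vegfa had a log2 ratio of -0.45. Car9, a carbonic anhydrase that exports acid, had 382 and 179 UMIs, a log2 ratio of -1.23 (-1.49 to -0.97).

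Glycolytic and redox genes were lower as well. Ero1a, an oxidase that helps form disulphide bonds in the endoplasmic reticulum, had 2049 and 956 UMIs (698 and 297 CPM), 2.35-fold lower (2.18 to 2.54). Its median per cell, after each cell was thinned to 10000 UMIs, was 4 UMIs in SCR and 1 in KO. Hk2, the hexokinase that starts glycolysis, had 476 and 205 UMIs, a log2 ratio of -1.35 (-1.59 to -1.11). Gys1, a glycogen synthase outside the list, had 218 and 105 UMIs and a ratio of -1.19. Bnip3, a receptor for mitophagy, had 1409 and 777 UMIs and a ratio of -0.99 (-1.12 to -0.87). The abundant enzymes moved least. Gapdh had a ratio of -0.48 (-0.51 to -0.45), Ldha -0.26 and Pgam1 -0.23, the smallest of the list.

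**Figure D2:**
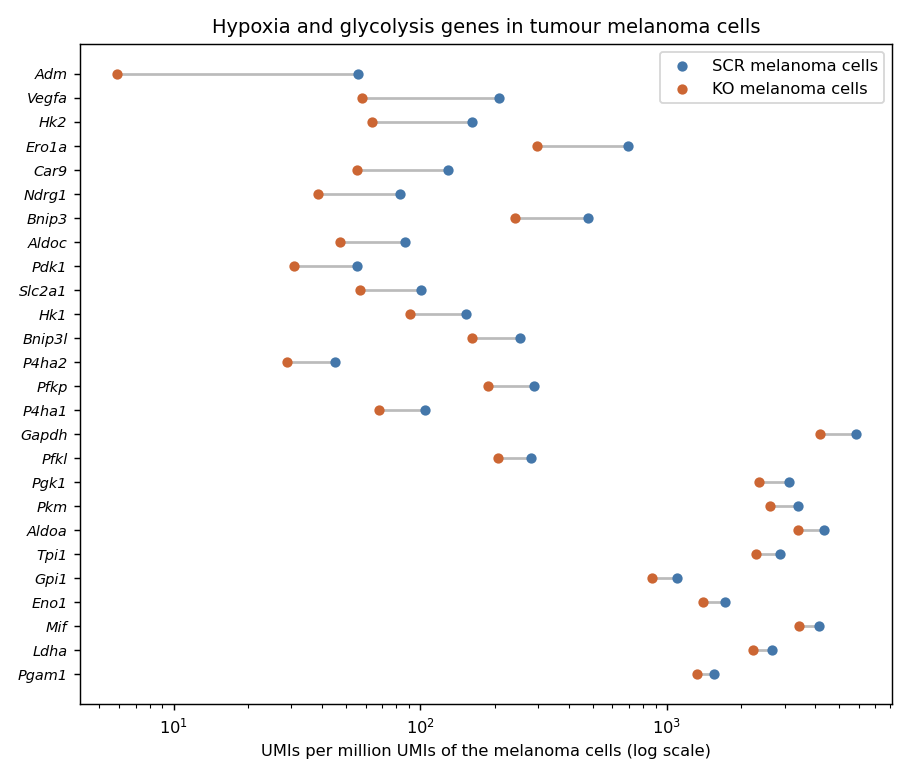
Level of each of the 26 tested hypoxia and glycolysis genes in SCR (blue) and KO (orange) melanoma cells, in CPM (log scale), ordered by ratio. All 26 KO points lie to the left of their SCR points, from Adm at 55.8 against 5.90 CPM down to Pgam1 at a log2 ratio of -0.23.

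Members with a high hypoxia share were found in both genotypes. Among members with at least 10000 UMIs (72 SCR, 87 KO), each thinned to 10000, the list took a median of 3.57% of UMIs in SCR, with quartiles of 2.25 and 4.56%, and 2.59% in KO, with quartiles of 1.74 and 3.47%. Single cells ranged from 0.15 to 7.18% in SCR and from 0.51 to 5.95% in KO. The ranges overlap almost wholly, and the KO cells are shifted down within them. The count of 15 lower genes became 9 among members without a Lyz2 UMI, where all 26 had a ratio below 0 and the median was -0.44. It became 8 of 22 in the thinned cells, an alternative chosen after seeing the data. Of all genes tested, 195 of 6544 were lower without a Lyz2 UMI and 179 of 2794 after thinning.

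In culture the same list was lower in part. Of 29 members tested in input RNA, 10 fell and none rose in KO cells, with a median of -0.09. Among all 20025 genes, 1915 (9.56%) rose and 1443 (7.21%) fell in input RNA (edgeR, adjusted p below 0.05). Without SCR replicate 1 the changed genes numbered 1031 and without SCR replicate 2 they numbered 1417, against 3358 with all libraries. Adm stood at 4.39 and 4.78 CPM in the SCR cultures, against 1.15 and 0.986 CPM in KO, a fall of 2.03 (log2 difference -2.03, SE 0.20, edgeR adjusted p = 0.00278). The KO cultures lay well below the SCR cultures. Bnip3 fell by 0.74 (edgeR adjusted p = 0.00778) and Gys1 by 0.40 (edgeR adjusted p = 0.00679). Vegfa (-0.09), Hk2 (-0.03), Car9 (-0.15) and Ero1a (-0.17) did not pass the test in culture. These differences between tumour and culture were not tested.

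Genes of DNA replication were higher in KO melanoma cells. Of 29 tested S-phase genes, 23 were at least 1.5-fold higher, 1 was lower, and 28 had a ratio above 0, with a median of 0.77. Among all genes 4.03% were this much higher. In the other cells the members' median was 0.15. Cdc6, which loads the replicative helicase at origins, had 25 UMIs in SCR and 76 in KO, a log2 ratio of 1.47 (0.80 to 2.18). Cdt1, its partner in loading, had 63 and 145 UMIs and a ratio of 1.07 (0.63 to 1.52). Hells, a chromatin remodeller needed for DNA methylation, had 131 and 338 UMIs (44.6 and 105 CPM), a ratio of 1.23 (0.94 to 1.54). The exception was Ung, a uracil glycosylase, with 63 and 44 UMIs and a ratio of -0.65 (-1.24 to -0.07).

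Mitotic genes and histones went the same way. Of 28 tested mitosis genes, 16 were at least 1.5-fold higher and none lower, with a median of 0.64 against 0.05 in the other cells. Among all genes 4.03% were this much higher and 3.79% this much lower. Kif20a, a kinesin of cytokinesis, had 36 and 82 UMIs, a ratio of 1.05 (0.47 to 1.66). Kif11, the motor of the spindle, had 61 and 137 UMIs and a ratio of 1.03. Hmgb2, a chromatin protein of dividing cells, had 616 and 1390 UMIs and a ratio of 1.04 (0.90 to 1.18). Of 8 tested replication-dependent histones 6 were higher, with a median of 0.86. H1f4, a linker histone, had 336 and 785 UMIs (114 and 244 CPM), a ratio of 1.09, and 36.3% of its SCR UMIs came from 1 cell. Histone genes have near-identical copies and their RNA mostly lacks a poly(A) tail, so their counts are uncertain.

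**Figure D3:**
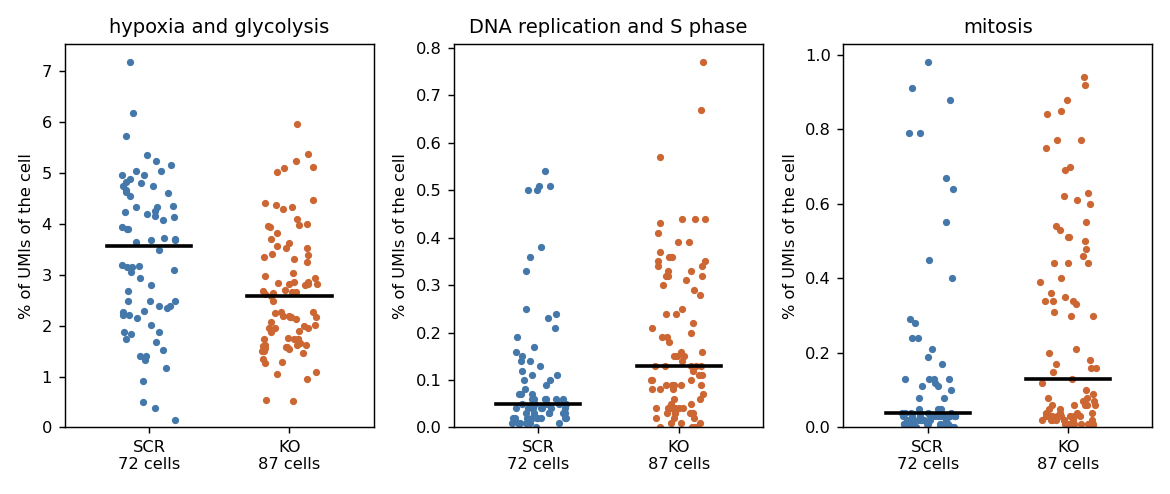
Share of each cell's UMIs taken by hypoxia and glycolysis, S-phase and mitosis genes (percent), for 72 SCR and 87 KO melanoma cells thinned to 10000 UMIs; points are cells and bars medians. The hypoxia median is 3.57% in SCR and 2.59% in KO, and the S-phase median is 0.05% and 0.13%, with overlapping ranges in all panels.

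Cell cycle RNA was higher in the typical KO cell, with ranges that overlap between genotypes. The S-phase list took a median of 0.05% of UMIs per thinned SCR cell and 0.13% per KO cell, with highest cells at 0.54 and 0.77%. The mitosis list took 0.04 and 0.13%, with upper quartiles of 0.13 and 0.45%, with highest cells at 0.98 and 0.94%. Across cells, S-phase and mitosis shares rose together, with a Spearman rho of 0.57 over the SCR and 0.49 over the KO cells. Hypoxia and S-phase shares ran opposite, with rho of -0.35 and -0.38. Cells of a library share its handling, and shares of 1 total depend on each other, so these are descriptions. In 11 S-phase genes with enough UMIs after thinning 9 were higher, and 10 of 13 mitosis genes were. Among members without a Lyz2 UMI, 18 of 25 S-phase and 10 of 27 mitosis genes were higher. Of all genes tested, 119 of 2794 were higher after thinning and 230 of 6544 without a Lyz2 UMI.

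In cultured input RNA, S-phase genes also rose in part. Of 30 tested, 11 rose and none fell, with a median of 0.17. Cdt1 rose by 0.54 (SE 0.07, edgeR adjusted p = 0.00472), from 125 and 112 CPM in SCR to 167 and 162 CPM in KO cultures, with no overlap. Hells (-0.05) and Cdc6 (0.06) did not pass the test. Of 30 mitosis genes 5 rose and 2 fell, with a median of -0.03. Of 31 histones 25 rose, with a median of 0.55. Among all genes 9.56% rose and 7.21% fell in input RNA. In footprints 1 of 30 S-phase, 2 of 30 mitosis and none of 32 histone genes rose, where only 0.51% of all genes rose.

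**Figure D4:**
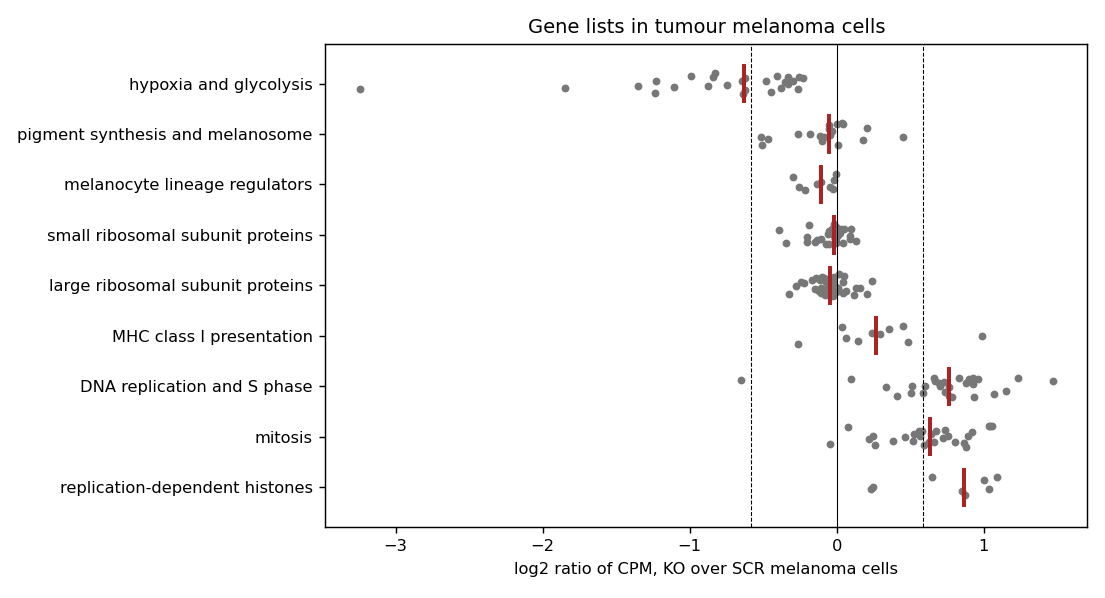
Log2 ratio of CPM, KO over SCR melanoma cells, for the tested members of 9 gene lists; points are genes, red bars the list medians and dashed lines the 1.5-fold limits. Hypoxia and glycolysis genes lie below 0 (median -0.63), S-phase, mitosis and histone genes mostly above it (medians 0.77, 0.64 and 0.86), and pigment and ribosomal protein genes around 0.

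Genes of pigment and lineage differed by less than 1.5-fold between genotypes. Of 19 tested pigment and melanosome genes and 9 tested lineage regulators, none was past 1.5-fold in either direction, with medians of -0.05 and -0.11. Over all genes, 4.03% were this much higher and 3.79% lower, so counts of 0 in such short lists are near that share. All 9 lineage regulators had a ratio below 0, among them Mitf (-0.26, interval -0.35 to -0.16) and Sox10 (-0.21, interval -0.36 to -0.07). Of all genes tested, 3258 of 7118 had a ratio below 0. The pigment list holds genes of the rule, which chose cells in both libraries by 1 limit, so its level is partly set by that choice. The genes of the rule were Pmel, the melanosome fibril protein (5176 CPM in SCR, 5009 in KO), Dct (4149 and 4698), Mlana (1713 and 1650) and Tyrp1 (1896 and 1906), given as a description. Oca2, a melanosome ion channel, had 331 and 339 UMIs, a ratio of -0.10 (-0.32 to 0.12). In cultured input RNA Oca2 fell by 1.68 (SE 0.15, edgeR adjusted p = 0.0021), from 10.8 and 12.3 CPM to 3.18 and 3.72 CPM. Cdh19, a cadherin of Schwann cell and melanocyte precursors, had 324 and 237 UMIs and a ratio of -0.58 (-0.83 to -0.34), just under the 1.5-fold limit. S100b, a further marker, had 321 and 263 UMIs and a ratio of -0.42 (-0.66 to -0.18).

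Among the melanoma markers with at least 100 UMIs, only Ptgds was past 1.5-fold. This prostaglandin D synthase, a marker given with the class and not used to choose cells, had 7773 UMIs in SCR and 4989 in KO (2646 and 1548 CPM), a log2 ratio of -0.77 (-0.83 to -0.72). Thinned cells held a median of 17 UMIs in SCR and 9 in KO. In culture Ptgds input RNA was 555 and 529 CPM in the SCR libraries, against 303 and 299 CPM in KO, a fall of 0.78 (SE 0.05, edgeR adjusted p = 0.000476). Its footprints were 3824 and 3822 CPM in the SCR libraries, against 1571 and 1327 CPM in KO, a fall of 1.51 (SE 0.11, edgeR adjusted p = 0.0195). In both assays the KO libraries lay far below the SCR libraries. The low Ptgds level of the other cells was lower too (72.9 and 47.0 CPM). These other cells include the 55 SCR and 81 KO cells with a pigment share between 0.5 and 1%. How much of this Ptgds came from them was not tested. Among 16878 genes, 86 (0.51%) rose and 301 (1.78%) fell in footprints. Leaving out SCR replicate 1, SCR replicate 2, KO replicate 1 or KO replicate 2 left 128, 44, 25 or 57 changed genes in place of 387.

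Among genes that passed the naming filters given below, the lowest ratios outside these lists belonged to genes seen in a few cells. Rhox5, a homeobox gene of the X-linked reproductive cluster, had 193 UMIs in SCR and 2 in KO, a 106-fold lower level (28.9 to 880). It was seen in 8 SCR and 2 KO members, and 30.6% of the SCR UMIs came from 1 cell. Col28a1, a collagen, had 196 and 6 UMIs, 35.8-fold lower (16.2 to 98.9), in 25 SCR and 3 KO members. In cultured input RNA Rhox5 fell by 0.93 (SE 0.20, edgeR adjusted p = 0.0219). Col28a1 fell by 2.22 (SE 0.11, edgeR adjusted p = 0.000306), from 23.1 and 23.2 CPM in the SCR libraries to 4.72 and 4.75 CPM.

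Other low ratios were spread over more cells. Selenbp1, a selenium-binding methanethiol oxidase, had 463 and 164 UMIs, a log2 ratio of -1.63 (-1.90 to -1.37). Dclk1, a microtubule-binding kinase, had 529 and 220 UMIs, in 87.7 and 73.2% of members, a ratio of -1.40, and fell by 0.48 in cultured input RNA (edgeR adjusted p = 0.00289). Ncam1, a neural cell adhesion molecule, had 158 and 75 UMIs, a ratio of -1.21, and fell by 0.54 in culture (edgeR adjusted p = 0.00248). Srf, the factor that drives actin and immediate early genes, had 138 and 62 UMIs and a ratio of -1.29, with a culture difference of 0.03 that did not pass the test. Abhd18 had 73 and 28 UMIs and a ratio of -1.52. Espn, an actin-bundling protein, had 346 and 125 UMIs and a ratio of -1.60 (-1.91 to -1.30).

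The 12 highest ratios were taken among genes that passed the naming filters given below. Cdc6, at 1.47, and Ifit1, at 1.51, did not pass them. Among the 12 were Hells, given above, Ect2, an exchange factor for cytokinesis (104 and 286 UMIs, 1.33), and Pbk, a mitotic kinase (64 and 160, 1.19). So were Atad2, a chromatin ATPase of S phase (160 and 397, 1.18), Slf1, a repair factor (40 and 101, 1.20), and Tcf19, which peaks at the entry into S phase (36 and 103, 1.38). Values in brackets are UMIs in SCR and KO and the log2 ratio. Pbk and Tcf19 also rose in culture, by 0.45 and 0.42 (edgeR adjusted p = 0.0055 and 0.00744). Ect2, Hells, Atad2 and Slf1 did not pass the test there.

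Rgs7bp had the highest ratio of the named genes. Its product anchors regulators of G-protein signalling at the membrane. It had 24 UMIs in SCR and 113 in KO, 4.29-fold higher (2.74 to 6.97), in 19.8 and 48.5% of members. Its cultured input RNA was 12.8 and 12.3 CPM in the SCR libraries, against 26.2 and 28.1 CPM in KO, a rise of 1.18 (SE 0.09, edgeR adjusted p = 0.0012). Mtus2, a microtubule-associated protein, had 27 and 80 UMIs, a ratio of 1.43, and rose by 1.26 in culture (edgeR adjusted p = 0.00419). In both genes the KO cultures lay clear of the SCR cultures. Patz1, a zinc finger repressor, had 25 and 92 UMIs, a ratio of 1.75 (1.10 to 2.45), with a culture difference of 0.21 just short of the threshold (edgeR adjusted p = 0.0505). Grm8, a glutamate receptor, had 47 and 119 UMIs and a ratio of 1.21, and Mxd3, a MAX-binding repressor, had 31 and 74 UMIs and a ratio of 1.12.

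**Figure D5:**
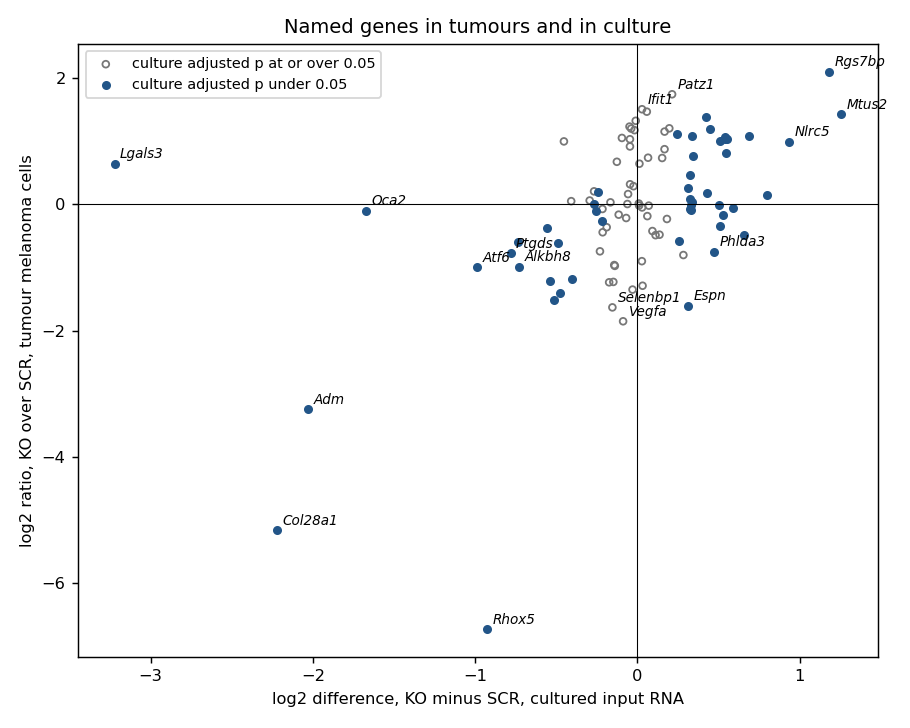
Log2 ratio of KO over SCR in tumour melanoma cells (vertical axis) against the log2 difference in cultured input RNA (horizontal axis) for the named genes with at least 100 UMIs; filled points passed the culture test. Col28a1, Adm, Atf6 and Ptgds lie low on both axes and Rgs7bp and Mtus2 high on both, while Lgals3, Oca2 and Espn do not lie on a common line.

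Over all genes, tumour and culture shared part of their differences. Of 281 genes at least 1.5-fold higher in KO melanoma cells and tested in cultured input RNA, 94 (33.5%) rose there and 11 fell. Of 270 lower genes, 89 (33.0%) fell there and 17 rose. Among all 7076 genes tested in both, 18.5% rose and 10.3% fell in culture. The 94 and 89 genes were 7.16 and 12.2% of the genes that rose and fell in culture. Across these genes the log2 values correlated with r = 0.27 and Spearman's rho = 0.28 for input RNA and with 0.09 and 0.10 for footprints. Genes are not independent replicates.

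Atf6 and Alkbh8 were lower in all 3 measurements, and Anxa2 in tumour cells and cultured input RNA only. Ptgds, Adm and Col28a1, given above, were lower in all 3 too. Footprints of Adm fell by 0.82 (edgeR adjusted p = 0.0235) and those of Col28a1 by 1.48 (edgeR adjusted p = 0.022). Atf6, a sensor of unfolded protein in the endoplasmic reticulum, had 349 and 192 UMIs in tumour cells, a log2 ratio of -0.996 (-1.26 to -0.74). In culture its input RNA was 133 and 130.1 CPM in the SCR libraries, against 59.95 and 66.65 CPM in KO, a fall of 0.99 (SE 0.06, edgeR adjusted p = 0.000436), and its footprints fell by 0.78 (SE 0.08, edgeR adjusted p = 0.0319). It was the only one of 18 tested unfolded protein response genes past 1.5-fold in tumour cells, where 4.03% of all genes were higher and 3.79% lower. Alkbh8, a methyltransferase of wobble uridines in tRNA, had 83 and 46 UMIs, a ratio of -0.99 (-1.54 to -0.45). Its input RNA fell by 0.73 (edgeR adjusted p = 0.00138) and its footprints by 0.98 (edgeR adjusted p = 0.017). Anxa2, a calcium-dependent membrane protein, had 1742 and 1263 UMIs and a ratio of -0.60. Its input RNA fell by 0.74 (edgeR adjusted p = 0.000647). Its footprints were higher in KO by 0.14, which did not pass the test. Of the 14 tested S100 and annexin genes Anxa2 was the only one past 1.5-fold, against the same shares over all genes. In this list 13 had a ratio at or below 0, with a median of -0.23, where 3258 of all 7118 genes were below 0.

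Ribosomal protein genes, most of which rose in cultured input RNA, were level in tumour cells. Of 33 small and 49 large subunit genes, none was past 1.5-fold in tumour cells, with medians of -0.02 and -0.04. Over all genes, 4.03% were this much higher and 3.79% this much lower. In cultured input RNA 29 of 33 and 41 of 49 rose, with medians of 0.38 in both lists, where 9.56% of all genes rose. In footprints none of 33 and none of 48 rose, 1 small subunit gene fell, and the medians were -0.15 and -0.12. Only 0.51% of all genes rose and 1.78% fell in footprints, so a count of 0 is near that share. Rps2, a small subunit protein, had a tumour ratio of -0.01 (-0.05 to 0.02) and rose by 0.50 in cultured input RNA (SE 0.08, edgeR adjusted p = 0.00985). Rpl41, a large subunit protein, had a tumour ratio of -0.17 and rose by 0.53 in cultured input RNA (edgeR adjusted p = 0.00527). Of 40 translation factors none was past 1.5-fold in tumour cells, and 21 rose in cultured input RNA and none in footprints. Of 74 nuclear genes of oxidative phosphorylation and 13 mitochondrial genes none was past 1.5-fold, with medians of 0.09 and 0.21. In cultured input RNA 33 of the 74 rose, and in footprints none. Ribosomal protein genes have many pseudogene copies, which counting may split.

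Class I genes are given side by side for tumour and culture, and the difference between the 2 was not tested. Of 10 tested class I genes 9 had a ratio above 0 in tumour cells, with a median of 0.27. Against 4.03% of all genes higher and 3.79% lower, 1 of the 10 was past 1.5-fold. That gene was Nlrc5, the transactivator of class I genes, with 44 and 96 UMIs and a ratio of 0.99 (0.46 to 1.54). The other cells held more Nlrc5, at 32.7 and 39.8 CPM, than the 15.0 and 29.8 CPM of melanoma cells. The part of free RNA in Nlrc5 was not tested. It was seen in 34.6% of SCR and 38.1% of KO members, with 18.75% of the KO UMIs in 1 cell. It rose by 0.94 in cultured input RNA (SE 0.18, edgeR adjusted p = 0.0149). Of 15 class I genes tested in cultured input RNA 6 fell and 2 rose, where 7.21% of all genes fell and 9.56% rose. Tap2, a subunit of the peptide transporter, chosen after its values were seen, had 48 and 72 UMIs in tumour cells, a ratio of 0.45 (-0.10 to 1.01). In culture it stood at 3.54 and 2.99 CPM in the SCR libraries, against 0.472 and 0.321 CPM in KO, a fall of 2.95 (SE 0.28, edgeR adjusted p = 0.00238). H2-K1, a class I heavy chain chosen in the same way, had 258 and 397 UMIs, a ratio of 0.49 (0.26 to 0.72), and fell by 1.26 in culture (edgeR adjusted p = 0.00981). The other cells, at 1254 CPM in SCR and 1372 in KO, held far more H2-K1 than the 87.8 and 123 CPM of melanoma cells, and the part of free RNA was not tested.

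Few interferon targets differed by 1.5-fold. Of 7 tested interferon gamma targets 1 was higher, with 6 ratios above 0 and a median of 0.49. Of 18 type I targets 2 were higher, with 9 ratios above 0, 9 below and a median near 0, against 4.03% of all genes higher. Cxcl10, a chemokine for T cells, had 311 and 600 UMIs, a ratio of 0.81, with 32.2% of the KO UMIs in 1 cell. Ifit1, an antiviral RNA-binding protein, had 41 and 128 UMIs, a ratio of 1.51, with 64.1% of the KO UMIs in 1 cell. Ifih1, a sensor of double-stranded RNA, had 57 and 125 UMIs, a ratio of 0.999, with 53.6% in 1 cell. The share of members with an Ifit1 UMI was 20.99% in SCR and 18.6% in KO, against 24.9 and 19.7% of the other cells at lower depth. The part of free RNA was not tested.

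Among 8 tested ligands for immune cells, 1 was higher and 1 lower, where 4.03% of all genes were higher and 3.79% lower. Pvr, the ligand of the receptors CD226 and TIGIT on T and NK cells, had 68 and 38 UMIs, a ratio of -0.97 (-1.59 to -0.38). Lgals3, a galectin, had 91 and 156 UMIs, a ratio of 0.64, with 41.7% of the KO UMIs in 1 cell. The ratio of Lgals3 turned to -0.57 without members that had a Ptprc UMI and to -0.27 with a pigment limit of 0.5%, and the other cells held it at 4303 and 3991 CPM. Of 12 tested matrix genes only Mmp14, a membrane protease, was past 1.5-fold, with 247 and 424 UMIs and a ratio of 0.65. Col4a1, a basement membrane collagen chosen after its values were seen, had 177 and 204 UMIs, a ratio of 0.07 (-0.23 to 0.37), and fell by 1.30 in culture (edgeR adjusted p = 0.000105). Enpp2, which makes lysophosphatidic acid, chosen likewise, had 282 and 281 UMIs, a ratio of -0.14, and rose by 1.70 in culture (edgeR adjusted p = 7e-05).

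Stress and signalling lists had a few members past 1.5-fold, where 4.03% of all genes were higher and 3.79% lower. Of 11 tested p53 targets 2 were lower, and 10 had a ratio below 0, with a median of -0.22. Cdkn1a, an inhibitor of cell cycle kinases, had 571 and 336 UMIs, a ratio of -0.90 (-1.10 to -0.70). In culture its input RNA differed by 0.03, which did not pass the test, and its footprints fell by 0.58 (edgeR adjusted p = 0.0319). Of 20 tested ATF4 and amino acid stress genes 3 were higher, led by Shmt2, a mitochondrial enzyme of one-carbon metabolism (290 and 544 UMIs, ratio 0.77), and 1 was lower, Ddit4, an inhibitor of mTORC1 (273 and 179 UMIs, ratio -0.74). The ratio of Ddit4 turned to 0.14 in thinned cells. Of 15 MAPK and immediate early genes Ier2 (405 and 938 UMIs, ratio 1.08) and Fosb (354 and 647, 0.74) were higher and Ier3 (359 and 226, -0.80) lower. Of 22 tested cholesterol synthesis genes none was past 1.5-fold.

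Some genes differed strongly among members, while the typical gene stayed near counting noise. The 4942 genes compared had at least 100 UMIs, at least 1 CPM in every cultured input RNA library and no name of a predicted gene. Their level in the class was at least that in the other cells. The Fano factor (variance over mean of thinned UMIs) had a median of 1.19 in SCR and 1.15 in KO, where 1 is counting noise. This factor was not adjusted for a gene's level. Def8, a regulator of lysosome position, had the highest, 79.6 and 65.5, with a median cell of 17 and a highest cell of 393 UMIs in SCR, and 22 and 312 in KO. Tmsb10, an actin-binding peptide, followed at 57.7 and 46.8. Ptgds reached 24.6 and 27.0, with a highest cell of 141 UMIs in SCR and 116 in KO. The list of the 15 most variable genes held also mt-Co2, mt-Cytb and mt-Atp6 of the mitochondrial genome, Actg1, Gapdh, Ero1a, Mt1 (metallothionein), Ppargc1a (a regulator of mitochondrial genes), Pde4d and Prkg1 (cyclic nucleotide signalling), Chsy3 and Pmel. Of these Ero1a, Pde4d and Ptgds were also past 1.5-fold between genotypes, Pde4d with 2905 and 1638 UMIs and a ratio of -0.96 (-1.05 to -0.87).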

How the data were processed

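The members of the class and the gene lists were chosen with earlier results of these data known. UMI counts of single cells are the authors' deposited matrices, made with Cell Ranger 8.0.1 per the submitters' processing notes. For cultured cells the authors deposited expected counts per gene, whole and not normalized. For these the submitters' processing notes name STAR 2.7.10a and StringTie 2.1.7, with no role stated. Total counts ran from 38968000 to 48692578 in input RNA and from 14555963 to 31301806 in footprints. Count columns named POOL were read as KO by elimination.

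UMIs of the chosen cells were summed per library and scaled to CPM of the class. Ratios carry exact conditional binomial intervals at 95%. Genes needed at least 100 UMIs over both libraries, and 1.5-fold was a rule of size, not a test. Cells of at least 10000 UMIs were thinned to 10000 where single cells were compared. Cultured counts were fitted in R 4.3.3 with edgeR 4.0.16 (TMM, filtering by expression, quasi-likelihood F test) and Benjamini-Hochberg adjustment over all genes tested at 0.05, each assay apart. DESeq2 1.42.0 was an alternative. Both scripts were tested on simulated data. Genes were matched between tumour and culture by Ensembl identifier.

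Mettl5 and Trmt112 were named first, then the class markers. The 12 highest and 12 lowest ratios were named, among genes of at least 1 CPM in every cultured input RNA library, with a level in the class at least that of the other cells and no name of a predicted gene. Up to 4 members past 1.5-fold per list, otherwise the 2 most abundant, and the 15 most variable genes were eligible. Not every eligible gene is named, and some are not reported here. Members named beyond this illustrate a list or were chosen after their values were seen. Blood TCRβ data were not used here.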

Additional observations from a re-analysis of the deposited data

Results flagged for a closer look

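For 3 genes chosen by the naming rule and at least 1.5-fold apart in tumours, tumour melanoma cells and cultured input RNA differed in opposite directions. In input RNA both KO cultures lay on 1 side of both SCR cultures. The difference between tumour and culture was not tested. Espn had a tumour log2 ratio of -1.60 and rose by 0.31 in cultured input RNA (SE 0.07, edgeR adjusted p = 0.0314). Lgals3 had a tumour ratio of 0.64 and fell by 3.22 in culture (SE 0.17, edgeR adjusted p = 0.000361), and 41.7% of its UMIs in KO melanoma cells came from 1 cell. Its tumour ratio was -0.57 without members that had a Ptprc UMI, -0.27 at a pigment limit of 0.5% and -0.25 as the mean of each cell's share, the same direction as in culture. Phlda3, a p53 target that blocks AKT, had a tumour ratio of -0.75 and rose by 0.48 in culture (SE 0.09, edgeR adjusted p = 0.0152).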

How the results depend on the processing

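Of 58 named tumour genes past 1.5-fold, 527 of 535 alternative values kept their direction. The exceptions were Ero1a (1.63) and Pde4d (1.65) at a pigment limit of 2%, Lgals3 at 0.5% (-0.27), without Ptprc (-0.57) and as the mean of each cell's share (-0.25), Pycr1 (-0.23) and H4c4 (-0.072) under the same mean, and Ddit4 (0.14) after thinning. Pigment limits of 0.5, 2 and 5% chose 136, 6 and 0 SCR and 178, 5 and 0 KO cells, so the 2% limit rests on few cells. Genes higher and lower in KO were 64 and 163 at 2%, 536 and 685 as the mean of each cell's share, 704 and 582 from 30 UMIs, 69 and 87 from 300 UMIs, 46 and 36 at 2-fold, and 119 and 179 after thinning. Hypoxia genes counted lower were 6 at 2%, 9 without Lyz2, 6 at 2-fold and 8 after thinning. S-phase genes counted higher were 12 from 300 UMIs, 4 at 2-fold and 9 after thinning, and mitosis genes 10 without Lyz2, 7, 3 and 10. At the 0.5% limit 13 of 27 hypoxia genes were lower, and 16 of 29 S-phase and 19 of 29 mitosis genes higher. Without members that had a Ptprc UMI these counts were 12 of 26, 23 of 29 and 14 of 28. After thinning 22 hypoxia, 11 S-phase and 13 mitosis genes were tested, and from 300 UMIs 23, 14 and 16; at 2-fold the number tested was unchanged. At 2% no S-phase or mitosis gene reached the UMI minimum. Thinning and these list counts were chosen after seeing the data. The 2% limit moved the median of all genes to -0.69. No gene under the UMI minimum got a value, and leaving out called doublets removed no member.

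In culture, no filter gave 1193 changed genes in input RNA and 755 in footprints, and DESeq2 gave 1207 in footprints. Leaving out 1 library gave 1031 to 4251 in input RNA and 25 to 128 in footprints; the lone library is then assumed to vary like the others. Replicate numbers are not stated to pair libraries, and deviations of same-numbered libraries correlated at 0.0467 in input RNA and 0.0523 in footprints. With a replicate block, edgeR gave 3659 changed genes in input RNA. In footprints the replicate block gave 0, with 3495 genes at an unadjusted p under 0.05. Single-cell values had no paired analysis, with 1 library per genotype. That number leaves the tumour comparison without a replicate check, and its counts also moved with the UMI minimum, as given above.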
